A study of Mus musculus with 7 samples.

Results

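Hemidesmosome and laminin-332 genes encode the structure that holds basal keratinocytes to the basement membrane of the skin. The 9 genes described here are Itga6, Itgb4, Itga3, Col17a1, Col7a1, Lama3, Lamb3, Plec and Dst, chosen by name from the 55423 features of a count table, and all 9 were among the 24433 genes that passed the filter on low counts. They were compared between tumours of Ivl:BRAFV600E mice and tumours of Ivl:BRAFV600E-SOX2LSL mice to ask how this adhesion machinery differed when SOX2 was switched on together with the oncogene.

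Both groups were C57BL/6J mice with a tamoxifen-inducible Ivl-CreERT2, which is active in involucrin-expressing keratinocytes, mostly suprabasal cells and some committed basal cells, and both carried 1 copy of the BRAFV600E oncogene, induced with topical tamoxifen at an age of 7 to 10 weeks. The Ivl:BRAFV600E-SOX2LSL mice carried, in addition, 1 copy of a Rosa26 transgene with a stop cassette, from which SOX2 and eGFP are made once Cre has acted. Ivl:BRAFV600E tumours 1 and 2 came from females that also carried a tdRFP reporter allele, and tumour 3 came from a male without it. Ivl:BRAFV600E-SOX2LSL tumours 1 and 2 came from males and tumour 3 from a female. RNA was taken from bulk tumour at the clinical endpoint, 1 tumour per mouse, and 3 tumours per group were analysed of the 4 Ivl:BRAFV600E and 3 Ivl:BRAFV600E-SOX2LSL samples listed. The genotype of the tumour left out is unresolved. Every Ivl:BRAFV600E-SOX2LSL tumour was collected sooner after induction than every Ivl:BRAFV600E tumour, so that genotype and time since induction cannot be told apart.

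A hemidesmosome is a rivet-like plaque at the base of the cell. Integrin alpha 6 beta 4 (Itga6, Itgb4) and collagen XVII (Col17a1) cross the membrane, plectin (Plec) and the epithelial form of dystonin (Dst) tie them to keratin filaments inside, laminin-332 (with the chains of Lama3 and Lamb3) is their ligand outside, and collagen VII (Col7a1) forms the fibrils that anchor the basement membrane in the dermis. Integrin alpha 3 (Itga3), paired with beta 1, binds the same laminin but belongs to focal adhesions. Inherited loss of these genes causes blistering of the skin, and in squamous carcinoma laminin-332 and its integrins are known for roles in invasion.

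Upstream windows of 250 bases from RefSeq (GRCm38.p6) were at hand for Itga3, Col17a1, Col7a1, Lamb3 and Dst, with 8 windows for these 5 genes. The windows of Col7a1 and Lamb3 are shown because both genes passed the test described below, with the match to the GC box GGGCGG in capitals. The Col7a1 window is at chr9:108953336-108953585 and the Lamb3 window, the more upstream of its 2, at chr1:193301744-193301993, both on the plus strand.
Col7a1: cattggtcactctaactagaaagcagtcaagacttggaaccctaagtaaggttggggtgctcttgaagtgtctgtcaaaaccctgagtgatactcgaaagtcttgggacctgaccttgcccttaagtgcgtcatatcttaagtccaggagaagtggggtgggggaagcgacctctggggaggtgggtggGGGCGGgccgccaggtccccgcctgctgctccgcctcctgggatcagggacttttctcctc
Lamb3: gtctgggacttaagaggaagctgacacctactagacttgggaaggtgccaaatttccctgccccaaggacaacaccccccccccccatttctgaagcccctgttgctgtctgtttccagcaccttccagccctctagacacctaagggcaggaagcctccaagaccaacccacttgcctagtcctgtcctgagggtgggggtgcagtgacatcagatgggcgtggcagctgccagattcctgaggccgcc
Motif letters were searched on both strands, the AP-1 motif TGANTCA, the GC box GGGCGG and a SOX-type motif ACAANG, whose letters do not overlap in these windows. The Col7a1 window holds 1 GC box and neither of the other motifs, and neither Lamb3 window holds any of them. Of 32851 mouse windows of the same length, 6.75% hold the AP-1 motif, 32.7% the GC box and 36.3% the SOX-type motif. Of the 8 member windows, 4 hold a GC box (Col7a1, both of Itga3 and 1 of Dst), 2 hold the SOX-type motif (1 of Itga3 and 1 of Dst) and none holds the AP-1 letters. An absent match says only that the letters are not in these 250 bases.

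Between 23565432 and 31152826 counts fell on genes per tumour, and levels are given as CPM (counts per 1 M counts on genes) after TMM scaling. Sox2 was at 0.716, 0.508 and 0.238 CPM in Ivl:BRAFV600E tumours 1 to 3 and at 182, 155 and 158 CPM in Ivl:BRAFV600E-SOX2LSL tumours 1 to 3. The higher level is in the group that carries the SOX2 transgene. The paper reported SOX2 as enriched in Ivl:BRAFV600E tumours relative to tumours induced from the Krt5 and Krt14 promoters, which were not compared here. Ivl:BRAFV600E-SOX2LSL tumour 1 stood apart from the rest, with the lowest summed level of 5 suprabasal keratinocyte markers (2330 CPM, against 17993 to 89403 CPM in the other tumours) and the highest of 5 macrophage markers (435 CPM, against 60.2 to 225 CPM). It was also the highest of the 6 tumours for 9 of the 9 members, so that values without this tumour are given below for many of the results. The basal keratinocyte markers Krt5, Krt14, Krt15 and Trp63 had counts in every tumour.

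The members' fitted levels were higher in Ivl:BRAFV600E-SOX2LSL tumours throughout, but a minority passed the test. Col7a1, Lamb3 and Plec rose (edgeR quasi-likelihood test, Benjamini-Hochberg adjusted p below 0.05 over all genes tested), none fell and 6 did not pass. Among all genes tested, 2.39% were called higher and 3.90% in either direction. The log2 fold change, Ivl:BRAFV600E-SOX2LSL minus Ivl:BRAFV600E, was above 0 for 9 of 9 members with a median of 0.95, beside a median of 0.04 over all genes tested, whose lower and upper quartiles were -0.41 and 0.65. For 7 members the tumours of the groups did not overlap in CPM, all 7 higher in Ivl:BRAFV600E-SOX2LSL tumours, while 34.2% of all genes showed such a gap in either direction and 18.2% in this one. Without an adjustment, 8 members had a p below 0.05, as did 25.7% of all genes. The number of members called was 7 with DESeq2, 2 with limma voom and 0 with sex as a covariate. On leaving out single tumours it ranged from 0 to 4. It was 0 without each of the 3 Ivl:BRAFV600E tumours. Of the Ivl:BRAFV600E-SOX2LSL tumours, it was 4 without tumour 1, and 1 without either tumour 2 or tumour 3. Among all genes, the main fit called 954, DESeq2 3653, limma voom 729 and the fit with sex 228. Without Ivl:BRAFV600E tumours 1 to 3 the number of all genes called was 22, 50 and 179. Without Ivl:BRAFV600E-SOX2LSL tumours 1 to 3 it was 1575, 202 and 412. The sum over the 9 members was 3259, 3470 and 3262 CPM in Ivl:BRAFV600E tumours and 7675, 5326 and 4877 CPM in Ivl:BRAFV600E-SOX2LSL tumours.

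**Figure D1:**
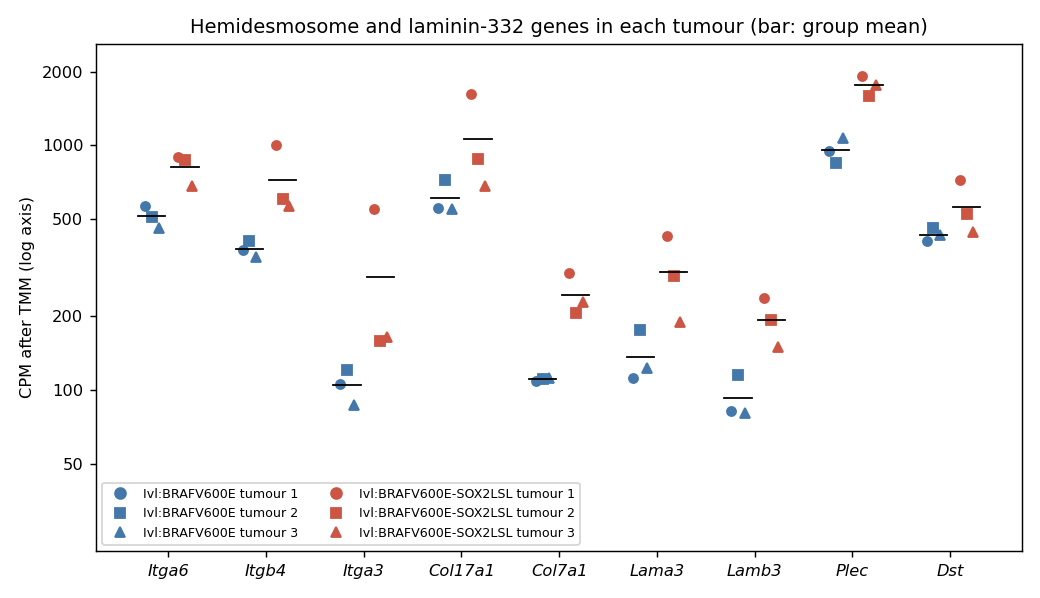
CPM after TMM scaling on a log axis for each of the 9 members, with 1 point per tumour (blue, Ivl:BRAFV600E; red, Ivl:BRAFV600E-SOX2LSL; symbols mark the tumour number) and a bar at each group's mean. The groups are apart for 7 members and overlap for Col17a1 and Dst, and Ivl:BRAFV600E-SOX2LSL tumour 1 is the highest point of each gene.

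Lama3 and Lamb3 were at higher levels in Ivl:BRAFV600E-SOX2LSL tumours, and of these Lamb3 was called. Lamb3, the beta chain, was at 81.8, 116 and 80.6 CPM in Ivl:BRAFV600E tumours and at 239, 193 and 149.8 CPM in Ivl:BRAFV600E-SOX2LSL tumours. Every tumour of the second group lay above every tumour of the first. Lamb3 rose by 1.06 on the log2 scale (SE 0.22, adjusted p = 0.0491), a fold of 2.09. The adjusted p lies close to the threshold, and Lamb3 passed in 4 of 14 alternatives, among them leaving out Ivl:BRAFV600E-SOX2LSL tumour 1 (0.89, adjusted p = 0.0430). It did not pass without any other single tumour (adjusted p = 0.0533 to 0.185), with limma voom (0.0504), with DESeq2 size factors (0.0503) or upper-quartile factors (0.0514), with epithelial scaling (0.0815) or with sex as a covariate (0.137). Lama3, the alpha chain that integrins bind, was at 112, 176 and 124 CPM against 427, 293 and 189 CPM. The groups again did not overlap, although the highest Ivl:BRAFV600E and the lowest Ivl:BRAFV600E-SOX2LSL tumour were close. Its log2 fold change of 1.15 (SE 0.31, 95% interval 0.41 to 1.89) did not pass (adjusted p = 0.0846). Without Ivl:BRAFV600E-SOX2LSL tumour 1 it was 0.81 (adjusted p = 0.103).

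Of the integrins that bind laminin-332, the hemidesmosomal pair missed the threshold narrowly and the spread of Itga3 was wide. Itga6, the alpha subunit, was at 567, 511 and 461 CPM in Ivl:BRAFV600E tumours and at 896, 874 and 685 CPM in Ivl:BRAFV600E-SOX2LSL tumours. Its groups were apart, and the log2 fold change was 0.67 (SE 0.17, 95% interval 0.28 to 1.07, adjusted p = 0.0702). Itgb4, whose long cytoplasmic tail docks plectin, was at 372, 406 and 351 CPM against 1007, 605 and 565 CPM. All 3 Ivl:BRAFV600E-SOX2LSL tumours lay above the others, with tumour 1 far from its group. The log2 fold change of Itgb4 was 0.95 (SE 0.24, 95% interval 0.38 to 1.51, adjusted p = 0.0721), and without Ivl:BRAFV600E-SOX2LSL tumour 1 it was 0.64 and passed (adjusted p = 0.0279).

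Itga3, the focal adhesion partner of beta 1, was at 106, 120.4 and 87.0 CPM in Ivl:BRAFV600E tumours and at 549, 159 and 164 CPM in Ivl:BRAFV600E-SOX2LSL tumours. Tumour 1 lay far above the other 2 of its group. The log2 fold change of 1.48 (SE 0.49, 95% interval 0.33 to 2.63, adjusted p = 0.121) was the largest among the members and was 0.63 without that tumour (adjusted p = 0.0509). Itgb1, its beta subunit and not among the 9 genes, was at 202, 197 and 194 CPM against 1142, 373 and 321 CPM. Its pattern over the tumours was like that of Itga3, and its log2 fold change was 1.63 (SE 0.47, adjusted p = 0.0956). Without Ivl:BRAFV600E-SOX2LSL tumour 1 it was 0.81 and passed (adjusted p = 0.0121).

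Of the collagens, Col7a1 passed and Col17a1 did not, and Col7a1 was the member with the smallest p. It was at 109, 111 and 112 CPM in Ivl:BRAFV600E tumours and at 299.8, 207 and 229.9 CPM in Ivl:BRAFV600E-SOX2LSL tumours. The Ivl:BRAFV600E tumours were nearly equal, with a coefficient of variation of 1.32%, and all 3 tumours of the other group were well above them. Col7a1 rose by 1.15 on the log2 scale (SE 0.16, 95% interval 0.77 to 1.53, adjusted p = 0.0233), a fold of 2.22, and by 0.98 without Ivl:BRAFV600E-SOX2LSL tumour 1 (adjusted p = 0.00628). Col7a1 passed in 9 of 14 alternatives, and not without each of the Ivl:BRAFV600E tumours (adjusted p = 0.0665 to 0.123), with epithelial scaling (0.0530) or with sex as a covariate (0.0625). Col17a1, the transmembrane collagen of the hemidesmosome, was at 557, 726 and 549 CPM against 1619, 881 and 679.8 CPM. Here the groups overlapped, since Ivl:BRAFV600E tumour 2 lay above Ivl:BRAFV600E-SOX2LSL tumour 3. The log2 fold change of 0.80 (SE 0.33, 95% interval 0.03 to 1.56, adjusted p = 0.183) was 0.35 without Ivl:BRAFV600E-SOX2LSL tumour 1.

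Of the cytoplasmic linkers, Plec passed and Dst did not. Plec was at 949, 845 and 1069 CPM in Ivl:BRAFV600E tumours and at 1919, 1590.5 and 1772 CPM in Ivl:BRAFV600E-SOX2LSL tumours. The groups were well separated and tumour 1 was not far from its group. Plec rose by 0.88 on the log2 scale (SE 0.17, 95% interval 0.48 to 1.28, adjusted p = 0.0415), a fold of 1.84, and by 0.81 without Ivl:BRAFV600E-SOX2LSL tumour 1 (adjusted p = 0.0273). Plec passed in 6 of 14 alternatives, and not without any other single tumour (adjusted p = 0.0766 to 0.167), with upper-quartile factors (0.0566), with epithelial scaling (0.0779) or with sex as a covariate (0.105). Dst was at 405, 459 and 429 CPM against 719.9, 523 and 442 CPM. The groups overlapped, and apart from tumour 1 the levels were close. The log2 fold change of Dst was the smallest among the members, 0.38 (SE 0.20, 95% interval -0.09 to 0.85, adjusted p = 0.275), and 0.16 without that tumour. The table counts reads per gene, so that the epithelial, neural and muscle forms of dystonin, and the several forms of plectin, were summed.

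**Figure D2:**
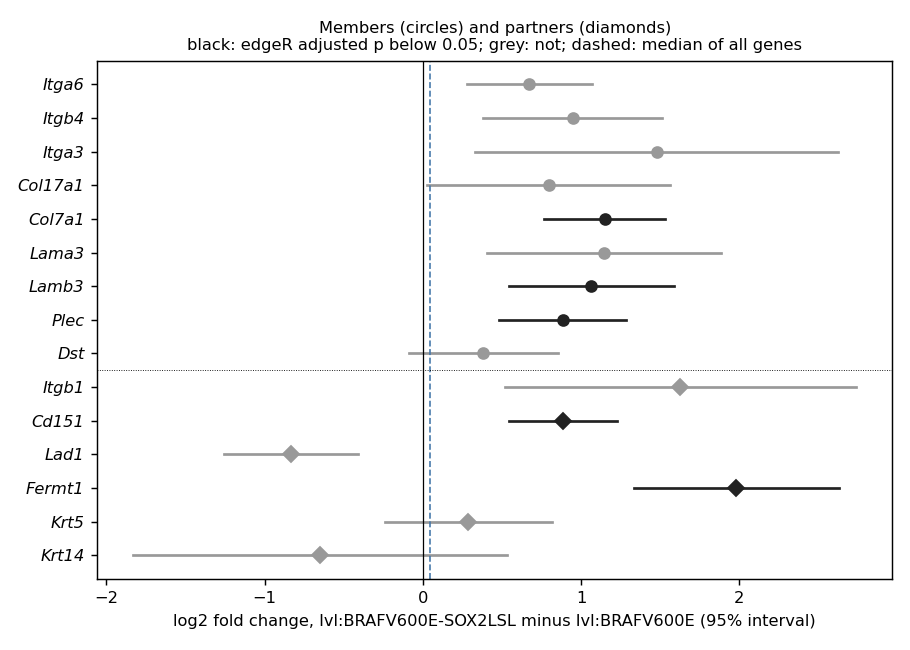
Log2 fold change (Ivl:BRAFV600E-SOX2LSL minus Ivl:BRAFV600E) of the 9 members (circles) and 6 partner genes (diamonds) on the x axis, with bars for 95% intervals from the edgeR fit and black points for an adjusted p below 0.05. Col7a1, Lamb3 and Plec among the members and Fermt1 and Cd151 among the partners are black, and the interval of Dst reaches below 0.

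Bulk tumour RNA was measured, so that a higher level can come from more cells that express a gene or from more RNA per cell, and these cannot be told apart. The 4 basal keratinocyte markers summed to 16271 to 34215 CPM in Ivl:BRAFV600E tumours and 9205 to 25397 CPM in Ivl:BRAFV600E-SOX2LSL tumours, dominated by Krt14, and none of the 4 was called by edgeR (1 at an unadjusted p below 0.05, 1 with DESeq2, 0 with limma voom). The 11 epithelial markers include Krt5, Krt14 and Trp63 of the basal list, and Krt14 was at the highest level among them in every tumour. They summed to 26454 to 49316 CPM against 13899 to 34265 CPM. Epcam (log2 fold change 3.67, adjusted p = 0.0309) and Cdh3 (0.89, adjusted p = 0.0272) were called higher and none was called lower. Of the 11, 6 fold changes were above 0 and 5 below, and 4 markers were lower without overlap, Perp at -1.27, Sfn at -0.90, Jup at -0.89 and Esrp1 at -0.78 (7 of the 11 at an unadjusted p below 0.05, 5 called by DESeq2 and 2 by limma voom). Among all genes, 16.0% were lower without overlap and 25.7% had an unadjusted p below 0.05. The 5 suprabasal markers summed to 75986 to 89403 CPM against 2330 to 25334 CPM without overlap, and 0 of 5 were called by edgeR (4 at an unadjusted p below 0.05, 4 with DESeq2, 0 with limma voom). With libraries scaled so that the mean log2 CPM of the epithelial markers was equal, edgeR called 0 of 9 members, with Col7a1 at 1.16 (adjusted p = 0.0530), Plec at 0.87 (adjusted p = 0.0779) and Lamb3 at 1.07 (adjusted p = 0.0815). The part of these cell types in the result was not tested.

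Markers of other cell types also moved with the groups. The 12 skeletal muscle markers summed to 2.76 to 12.7 CPM in Ivl:BRAFV600E tumours and 707 to 2933 CPM in Ivl:BRAFV600E-SOX2LSL tumours, with 9 of 11 tested markers called higher by edgeR (10 with DESeq2, 1 with limma voom) and Myh4 at 0 counts in all Ivl:BRAFV600E tumours. Muscle has its own forms of plectin and dystonin. In Ivl:BRAFV600E-SOX2LSL tumours 1 to 3 the muscle sums were 2817, 2933 and 707 CPM, beside Plec at 1919, 1590.5 and 1772 CPM. The 5 macrophage markers summed to 60.2 to 124.8 CPM against 131 to 435 CPM, with Csf1r and Ptprc called higher by edgeR (adjusted p = 0.0483 each), while DESeq2 called 4 of the 5 and limma voom 0. The 7 fibroblast markers summed to 759 to 5080 CPM against 3936 to 8281 CPM with overlap, and 0 of 7 were called by edgeR (1 at an unadjusted p below 0.05, 1 with DESeq2, 0 with limma voom). Fibroblasts also make collagen VII. Endothelial markers (166 to 182 against 171 to 204 CPM) and Schwann cell markers (44.4 to 56.0 against 44.6 to 64.8 CPM) overlapped between the groups. The part of these cell types in the members' levels was not tested.

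**Figure D3:**
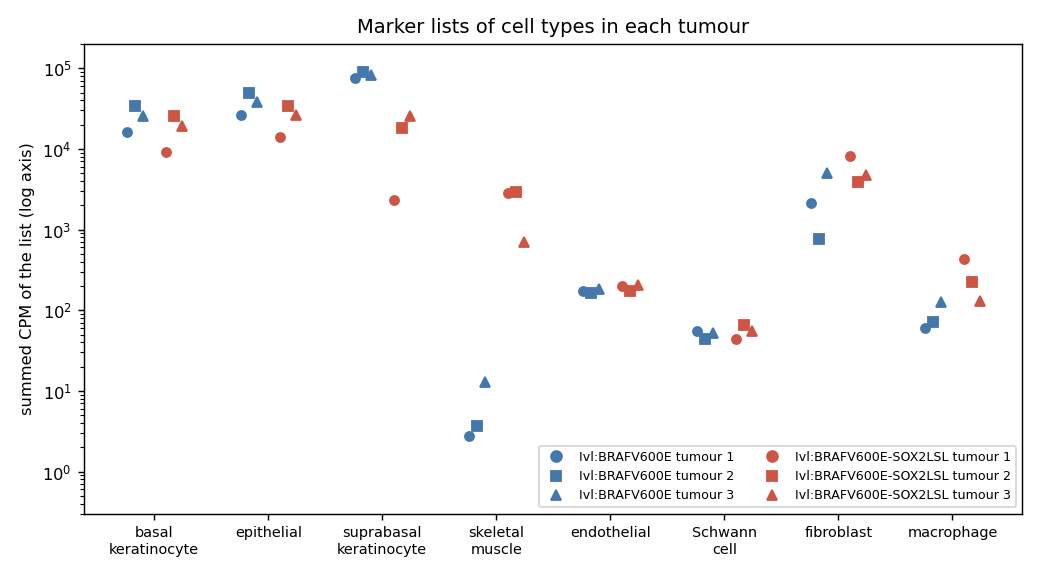
Summed CPM of each cell type marker list on a log axis, 1 point per tumour (blue, Ivl:BRAFV600E; red, Ivl:BRAFV600E-SOX2LSL). Skeletal muscle markers lie between 2.76 and 12.7 CPM in Ivl:BRAFV600E tumours and between 707 and 2933 CPM in Ivl:BRAFV600E-SOX2LSL tumours, while endothelial and Schwann cell sums overlap.

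The members differed in abundance once counts were divided by exon length. In Ivl:BRAFV600E tumours the mean level per kb of exon was 101.6 CPM for Col17a1, followed by 56.8 for Itga6, 53.7 for Itgb4 and 52.7 for Plec. Itga3 (18.3), Lamb3 (14.02), Lama3 (12.7), Col7a1 (10.8) and Dst (10.5) came after. The ranges of neighbours in this order were apart only between Col17a1 and Itga6 and between Plec and Itga3. In Ivl:BRAFV600E-SOX2LSL tumours Col17a1 was again first with 176 CPM per kb, followed by Itgb4 (103), Plec (97.2), Itga6 (90.6), Itga3 (50.9), Lamb3 (29.3), Lama3 (28.2), Col7a1 (23.9) and Dst (13.6). The ranges of Itga6, Itgb4 and Plec overlapped in both groups, and in Ivl:BRAFV600E-SOX2LSL tumours only Col7a1 and Dst were neighbours without overlap. Exon bases were taken over all annotated forms of each gene. The levels per kb, their order and the size of the ratios below therefore depend on the annotation. Dst has 41155 annotated exon bases over all its forms, more than any single form uses, so its level per kb is a low estimate.

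Ratios of transcript levels were compared within tumours, since they do not depend on the scaling of the library. They pair genes whose proteins bind each other and, as Dst to Plec, the linkers of the plaque. Of the 6 ratios of CPM per kb, 5 overlapped between the groups. Itga6 to Itgb4 was 0.977 to 1.18 in Ivl:BRAFV600E tumours and 0.692 to 1.12 in Ivl:BRAFV600E-SOX2LSL tumours, a difference of -0.23 on the log2 scale (exact two-sided permutation test, p = 0.4, adjusted p = 0.6). Lama3 to Lamb3 was 0.841 to 0.943 against 0.777 to 1.10 (difference 0.04, exact permutation p = 1, adjusted p = 1). The groups overlapped for both pairs. Since 3 tumours against 3 cannot give a p under 0.1, no ratio could pass and the ratios are given as a description. The difference for Itga6 to Itgb4 was -0.04 without Ivl:BRAFV600E-SOX2LSL tumour 1 and -0.39, with no overlap, without tumour 2. For Lama3 to Lamb3 it was -0.087 without tumour 1.

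Itga3 to Itgb1 was 0.320 to 0.436 against 0.305 to 0.366 (difference -0.15, exact permutation p = 0.4, adjusted p = 0.6), although the levels of both genes had a wide spread. Col17a1 to Itgb4 was 1.75 to 2.08 against 1.40 to 1.88 (difference -0.19, exact permutation p = 0.3, adjusted p = 0.6), and without Ivl:BRAFV600E-SOX2LSL tumour 1 the groups were apart with a difference of -0.28. Plec to Itgb4 was 0.805 to 1.18 against 0.738 to 1.21 (difference -0.01, exact permutation p = 1, adjusted p = 1), with a difference of 0.18 without that tumour. Dst to Plec was the only ratio without overlap, 0.177 to 0.239 against 0.1097 to 0.165, so that Dst was lower relative to Plec in all 3 Ivl:BRAFV600E-SOX2LSL tumours. The difference was -0.53 on the log2 scale, with the smallest p that 3 against 3 tumours allow (exact permutation p = 0.1, adjusted p = 0.6).

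**Figure D4:**
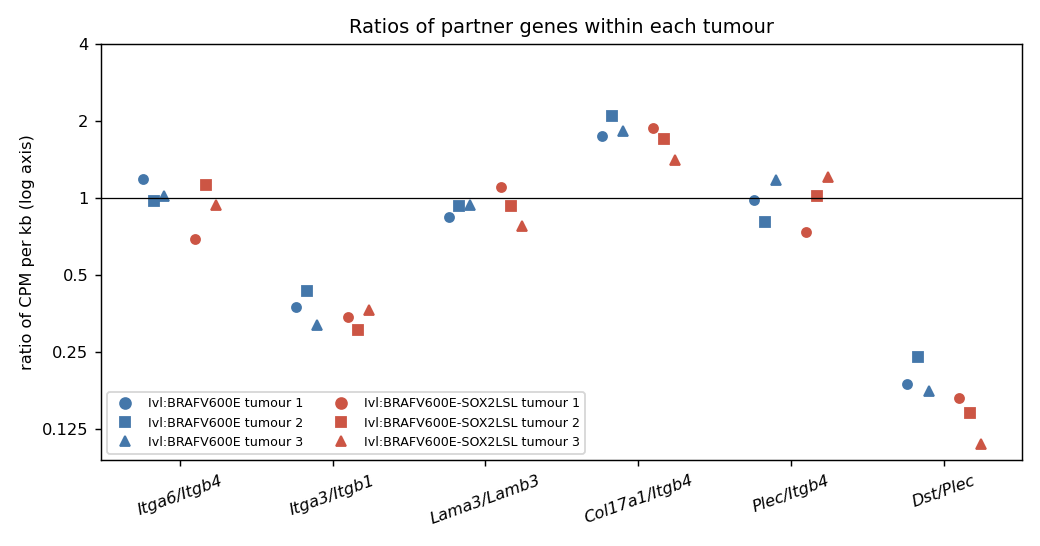
Ratio of CPM per kb of exon within each tumour, on a log axis, for 6 pairs of genes, with 1 point per tumour (blue, Ivl:BRAFV600E; red, Ivl:BRAFV600E-SOX2LSL). Dst to Plec is the one pair whose groups do not overlap, with 0.177 to 0.239 in Ivl:BRAFV600E tumours and 0.1097 to 0.165 in Ivl:BRAFV600E-SOX2LSL tumours.

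Partner genes of the hemidesmosome moved in part the same way. Of 6 partners, 2 rose, none fell and 4 did not pass edgeR (4 had an unadjusted p below 0.05, DESeq2 called 4 and limma voom 3), with fold changes on the log2 scale whose median was 0.59. Of all 24433 genes, edgeR called 3.90% and 25.7% had an unadjusted p below 0.05, while DESeq2 called 3653 and limma voom 729. Fermt1, kindlin-1, which activates integrins in keratinocytes, was at 24.1, 24.2 and 19.8 CPM in Ivl:BRAFV600E tumours and at 130.2, 74.4 and 64.4 CPM in Ivl:BRAFV600E-SOX2LSL tumours. All 3 tumours of the latter group were above the former, and Fermt1 rose by 1.98 on the log2 scale (SE 0.28, adjusted p = 0.0221). On leaving out single tumours its log2 fold change was 1.61 to 2.18. Cd151, a tetraspanin that binds laminin-binding integrins, was at 44.1, 44.4 and 40.1 CPM against 93.5, 70.8 and 73.3 CPM. Its groups were apart and it rose by 0.88 (SE 0.14, adjusted p = 0.0287). Lad1, ladinin of the anchoring filaments, went the other way in its values, at 534, 633 and 508 CPM against 250.3, 339.7 and 350.6 CPM, without overlap (log2 fold change -0.83, SE 0.18, adjusted p = 0.0527). Krt5 (0.29, SE 0.23, 95% interval -0.24 to 0.82, adjusted p = 0.452) and Krt14 (-0.65, SE 0.50, 95% interval -1.83 to 0.53, adjusted p = 0.447), the keratins of the basal layer to which hemidesmosomes attach, did not pass. Krt5 was at 0.46 without Ivl:BRAFV600E-SOX2LSL tumour 1 and 0.12 without tumour 2, and Krt14 at -0.30 and -1.04, and at -0.34 without Ivl:BRAFV600E tumour 2. No partner was called without any single Ivl:BRAFV600E tumour or with sex as a covariate, 1 was called without Ivl:BRAFV600E-SOX2LSL tumour 2 or 3, and 4 were called without tumour 1, among them Itgb1 and Lad1 (-0.70, adjusted p = 0.0325).

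Other families were read beside the members. Of 26 other basement membrane genes, Col4a5, a chain of collagen IV, rose (log2 fold change 1.77, SE 0.29, adjusted p = 0.0281), Fras1, a protein of the sublamina densa, fell (-2.45, SE 0.39, adjusted p = 0.0277) and 24 did not pass, with 24 fold changes above 0 and a median of 0.71. Without Ivl:BRAFV600E-SOX2LSL tumour 1 that median was 0.38, with 22 above 0. Lamc1, the gamma chain of the other major laminins, had a log2 fold change of 0.81 (SE 0.17, adjusted p = 0.0517), and of 0.62 without that tumour (adjusted p = 0.0194). Of 10 focal adhesion genes, Tln1, talin (0.97, SE 0.16, adjusted p = 0.0290), and Fermt2, kindlin-2 (1.62, SE 0.27, adjusted p = 0.0303), rose and 8 did not pass, with 10 above 0 and a median of 0.55. On leaving out single tumours Tln1 was at 0.81 to 1.06 and Fermt2 at 1.26 to 1.82. Ilk of this list shares 76.7% of its exon bases with Taf10 on the opposite strand and is uncertain. Vcl of this list shares 25.5% with Ap3m1, also on the opposite strand. Tns1, tensin, was at 0.53 (adjusted p = 0.11). In both lists 0 genes were called by edgeR without any single Ivl:BRAFV600E tumour, without Ivl:BRAFV600E-SOX2LSL tumour 2 or with sex as a covariate. At most 1 focal adhesion gene was below 0 under any alternative, and 6 basement membrane and 3 focal adhesion genes were called without Ivl:BRAFV600E-SOX2LSL tumour 1. Without tumour 3 of that group, 0 and 1 were called.

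The other members of the plakin family, to which Plec and Dst belong, had fold changes of the opposite sign. All 5 fitted differences were below 0, also under each alternative (median -0.84 on the log2 scale), and 0 of 5 were called by edgeR (3 at an unadjusted p below 0.05, 2 with DESeq2, 0 with limma voom). Ppl and Evpl, periplakin and envoplakin of the cornified envelope, were at -0.84 (adjusted p = 0.0745, and 0.0382 without Ivl:BRAFV600E-SOX2LSL tumour 1) and -0.84 (adjusted p = 0.123), and Dsp, desmoplakin of the desmosome, was at -0.84 (adjusted p = 0.188). The groups did not overlap for 4 of these 5 genes, all lower in Ivl:BRAFV600E-SOX2LSL tumours, where 16.0% of all genes were lower without overlap. Among 3 proteases that process laminin-332 or procollagen VII or cleave matrix, 0 were called by edgeR (2 at an unadjusted p below 0.05, 2 with DESeq2, 0 with limma voom), with Bmp1 at 1.20 (adjusted p = 0.111), Mmp14 at 1.27 (adjusted p = 0.118) and Tll1 at 0.66 (adjusted p = 0.315). Without Ivl:BRAFV600E-SOX2LSL tumour 1 these were 0.62, 0.67 and 0.14, and the median of the 3 proteases was 0.62 in place of 1.20.

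**Figure D5:**
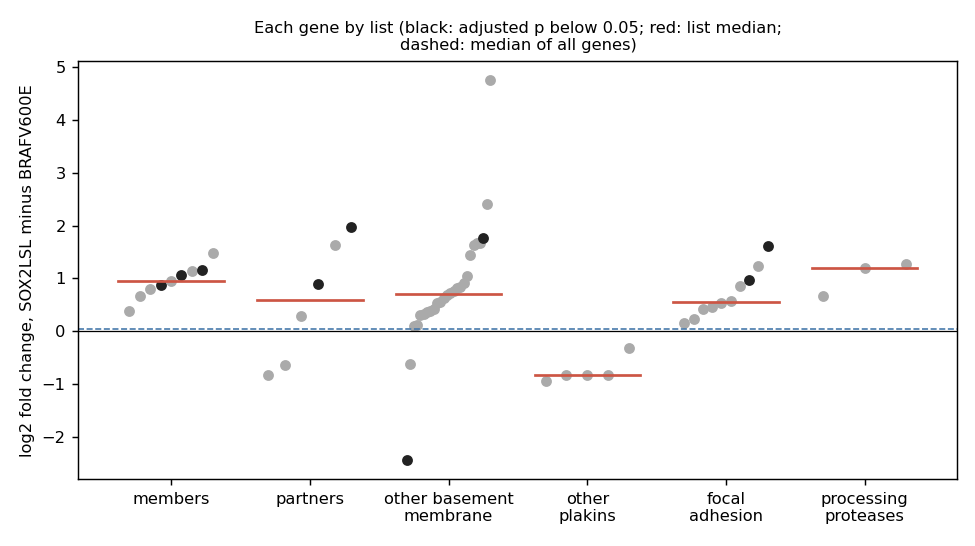
Log2 fold change (Ivl:BRAFV600E-SOX2LSL minus Ivl:BRAFV600E) of each gene of the members and related lists, 1 point per gene, black where the adjusted p was below 0.05, with a red line at each list median and a dashed line at the median of all genes. All 9 members and all 10 focal adhesion genes lie above 0, and all 5 other plakins lie below it.

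The genes whose levels most resembled those of Itgb4 and Dst were named by the root mean square difference of centred log2 CPM over the 6 tumours, among 8642 genes outside the members with a mean of at least 10 CPM. For Itgb4 these were Gramd1a (0.0524), Picalm (0.0597), Nedd9 (0.0674), Aplp2 (0.0744) and Dram1 (0.0759). For Dst they were Itgav (0.0486), an alpha integrin subunit, Rtn4 (0.0526), Coa3 (0.0580), Glmp (0.0593) and Ogt (0.0601). These differences are on the log2 scale and describe 6 tumours only.

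The members are spread over the genome (GRCm38, positions from GENCODE M21). Itga6 lies on the plus strand at chr2:71745616-71858416, Itgb4 on the plus strand at chr11:115974709-116008412 and Itga3 on the minus strand at chr11:95044474-95076801. Col17a1 lies on the minus strand at chr19:47646344-47692094 and Col7a1 on the plus strand at chr9:108953586-108984875. Lama3 lies on the plus strand at chr18:12333819-12583013 and Lamb3 on the plus strand at chr1:193207699-193343878. Plec lies on the minus strand at chr15:76170974-76232574, and Dst on the plus strand at chr1:33908225-34308661.

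Among the members, counting could be shared with another gene to a small extent. Col7a1 shares 36 exon bases with Mir711 and Plec shares 205 with Parp10 on the same strand, and Itgb4 shares 537 with B230344G16Rik on the opposite strand (7.66% of its exon bases). On the opposite strand, Lama3 overlaps Gm29200 over 1.83% of its exon bases. Dst overlaps Gm26788 there over 2.52% and A930005N03Rik over 1.11%, and none of these features is annotated as protein coding. Whether strand was used in counting is not given in the sources used here.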

How the data were processed

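Deposited raw counts per gene of bulk tumour RNA (ribosomal RNA depleted) were used. The authors checked reads with FastQC 0.11.8, trimmed them with Trim Galore, aligned them to GRCm38 with HISAT2 2.1.0 and counted them with featureCounts (Subread 1.6.3). Handling of multimapping reads is not given in the sources used here, and reads shared between related genes may be lost or split. Of 7 columns, each named for a mouse, the study's source data give genotype and sex for 6, and 1 column, whose genotype is unresolved, was not used. Its name has the prefix of the Ivl:BRAFV600E-SOX2LSL mice, whereas the labelled group sizes would make it an Ivl:BRAFV600E tumour. Groups therefore hold 3 tumours each, although the design listed 4 and 3 samples.

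The filter of the study (5 reads or more in 1 tumour or more) left 24433 genes. Counts were scaled by TMM and tested with edgeR 4.0.16 (R 4.3.3; quasi-likelihood test, genotype only, Benjamini-Hochberg adjustment over all genes tested, threshold 0.05). Total counts of 23565432 to 31152826 put a level of 3 counts at 0.0839 to 0.143 CPM, far below every member. Each group held 3 tumours, which limits precision. Intervals cover the spread between tumours of different mice. Ratios were tested by exact two-sided permutation.

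Alternatives were DESeq2 1.42.0, limma 3.58.1 (voom), DESeq2 size factors, upper-quartile and epithelial scaling, other filters, sex as a covariate and leaving out each tumour. For ratios they were no division by exon length and 0.5 CPM added. The code was tested on simulated data. Named genes are the 9 members, the 6 partners, Sox2, the 3 genes with the smallest p of each other related list and 5 similar profiles each for Itgb4 and Dst. Marker genes outside this rule (Krt15, Trp63, Epcam, Cdh3, Perp, Sfn, Jup, Esrp1, Myh4, Csf1r and Ptprc, and Ilk and Vcl for their overlaps) were named after their values were seen. A planned result that is not reported here was left out of the lists and ratios. The members and all lists were chosen with earlier results of these data known. Figures were drawn with matplotlib 3.10.9.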

Additional observations from a re-analysis of the deposited data

How the results depend on the processing

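The log2 fold change of each of the 9 members kept its sign under all 14 alternatives, but the calls did not all hold. Against 3 members called, DESeq2 called 7, limma voom 2, DESeq2 size factors 2, upper-quartile scaling 1, no filter 5, and epithelial scaling and sex as a covariate 0 each. Leaving out each tumour gave 0 to 4. Col7a1 was called in 9 of 14 alternatives (0.98 to 1.26), Plec in 6 (0.78 to 0.97) and Lamb3 in 4 (0.89 to 1.25). Over all genes, 954 calls became 3653 with DESeq2, 1759 without a filter, 228 with sex, and 22 to 1575 when each tumour was left out. Epithelial scaling gave 365 higher and 557 lower, against 585 and 369. The median of all genes moved from 0.04 to -0.06 with upper-quartile scaling. Among partners, basement membrane, plakin, focal adhesion and protease genes, the counts of 2, 2, 0, 2 and 0 called became 4, 8, 2, 3 and 2 with DESeq2 and 0 in every list with sex as a covariate. They were 3 for partners with limma voom, 3 for partners and 7 for basement membrane without a filter, 3 for partners and 3 for basement membrane with filterByExpr, and 0 for focal adhesion and 1 for plakins with epithelial scaling. Leaving out each tumour gave 0 to 4, 0 to 6, 0 to 1, 0 to 3 and 0 to 0. These alternatives for the lists were chosen after seeing the data. The cause of these differences was not tested.

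Leaving out each tumour moved the log2 ratio differences to between -0.39 and -0.04 for Itga6 to Itgb4, -0.26 and -0.04 for Itga3 to Itgb1, -0.087 and 0.16 for Lama3 to Lamb3, -0.28 and -0.07 for Col17a1 to Itgb4, -0.18 and 0.18 for Plec to Itgb4, and -0.66 and -0.37 for Dst to Plec. No paired analysis was possible because the count columns carry no replicate number that the labels share. With 3 tumours a group, sex and the reporter allele also differ in part between the groups.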
